A study of Ovis aries with 6 samples.

Results

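This report describes the 7 elongases of very long chain fatty acids (ELOVL1 to ELOVL7) and 3 fatty acid desaturases (FADS1, FADS2 and SCD) in the skin of 2 breeds of sheep. The genes were found by their symbols, and all 10 were present among the 28394 genes of the deposited tables. The skin was taken behind the shoulder blade from 3 Super Merino (SM) sheep, a fine wool breed, and 3 Small Tail Han (STH) sheep, a coarse wool breed, and the RNA of each sheep was sequenced as 1 library. The sample records give an age of 9 months for every sheep, and the methods of the study, which describe ewes kept on 1 farm with the same feed, give a younger age. In the labels 128, 30034 and 30126 are SM sheep, while XW3, XW5 and XW8 belong to the STH breed, and values are given below in this order. No sheep received a treatment, so breed is the only difference that the labels give between the groups, and each group stands for its breed with 3 animals only.

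Fatty acid elongases sit in the membrane of the endoplasmic reticulum and carry out the condensation step that lengthens an acyl-CoA with carbons from malonyl-CoA. The family is divided by substrate. ELOVL1, ELOVL3, ELOVL4, ELOVL6 and ELOVL7 act mainly on saturated and monounsaturated chains, whereas ELOVL2 and ELOVL5 act on polyunsaturated chains. SCD places the first double bond into saturated chains, and FADS1 and FADS2 add further double bonds to polyunsaturated ones. In skin the products are used for ceramides of the epidermal barrier and for the wax esters and sterol esters of sebum, which in sheep forms lanolin.

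Total counts ranged from 28870583 to 44645091 per library. A gene with 3 counts would have between 0.0664 and 0.0993 CPM, a count scaled to the size of its library, and this floor covers counting error only. All 10 genes were among the 15320 that had at least 10 counts in at least 3 sheep and were therefore tested. The smallest counts were those of ELOVL2, between 18 and 51 per sheep, and the next smallest those of FADS2, between 321 and 1173. The other 8 genes had at least 775 counts in every sheep.

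Levels were compared between genes as RPKM, the deposited reads per exon length and library size, because a count also grows with the length of a gene. ELOVL3 was the most abundant of the 10 genes, with a median over the 6 sheep of 188 RPKM, and it held rank 227 among the tested genes by mean RPKM. ELOVL1 followed with a median of 105 RPKM, ELOVL4 with 94.0, SCD with 87.7 and ELOVL7 with 45.0. These 5 genes were well above ELOVL6 (19.0 RPKM), FADS1 (13.6), FADS2 (8.33) and ELOVL5 (3.40). ELOVL2 was the least abundant, with a median of 0.166 RPKM and rank 14238 of the tested genes. The 6 sheep spanned 77.1 to 242 RPKM for ELOVL1, 56.2 to 156 for ELOVL4 and 76.8 to 125 for SCD. Although these ranges overlapped, ELOVL1 was above ELOVL4 within each of the 6 sheep, with ELOVL4 at 0.646 to 0.924 times its level. The place of SCD varied, since it was below both genes in the SM sheep and in STH sheep XW5 and above both in the other STH sheep.

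**Figure D1:**
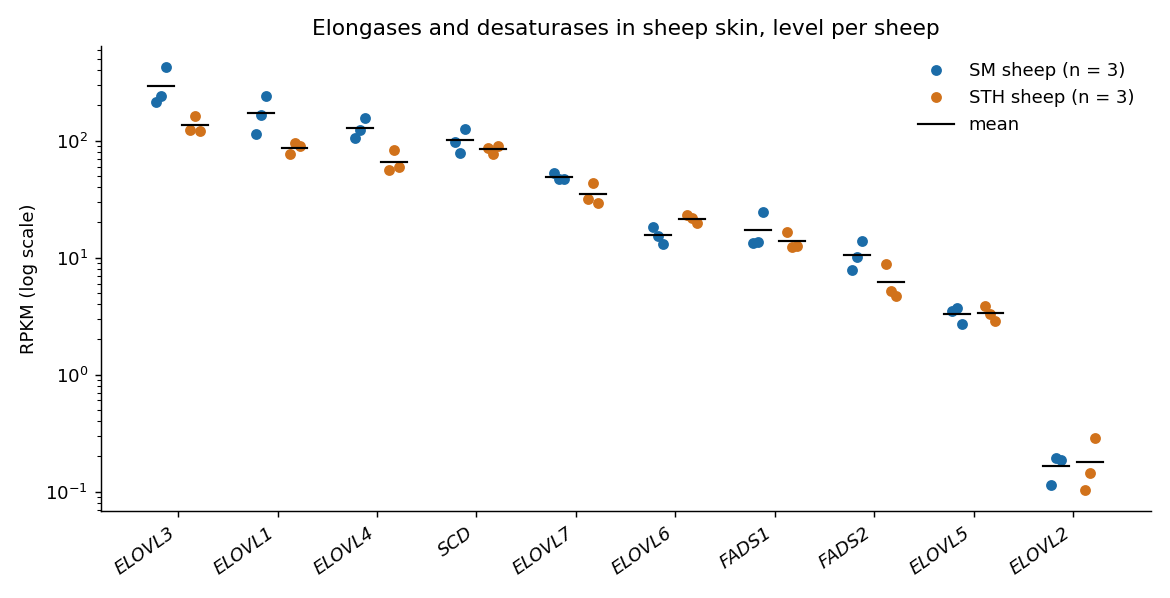
RPKM on a log scale for each of the 10 genes, ordered by their median over the 6 sheep, with a point for each SM sheep (blue, n = 3) and each STH sheep (orange, n = 3) and a line at the mean of each breed. The points run from 0.103 RPKM for ELOVL2 in STH sheep XW3 to 425 RPKM for ELOVL3 in SM sheep 30126, and the breeds are apart for ELOVL3, ELOVL1, ELOVL4, ELOVL7 and ELOVL6.

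Between the breeds, ELOVL1, ELOVL3 and ELOVL4 had mean CPM in SM sheep close to double those in STH sheep, ELOVL7 was higher in SM sheep by a smaller margin, and ELOVL6 had the opposite direction. For each of these 5 genes every sheep of one breed lay beyond every sheep of the other. FADS1, FADS2, SCD, ELOVL2 and ELOVL5 overlapped between the breeds. By edgeR's quasi-likelihood test across all genes, with breed as the only term, none of the 10 genes passed the thresholds of a Benjamini-Hochberg adjusted p under 0.05 and a change of more than 1.5-fold (SE below is the standard error of the log2 fold change, and each edgeR adjusted p is from this test), and neither did any of the 15320 tested genes (0%). At an unadjusted p under 0.05 there were 5 of the 10 genes higher in SM sheep (ELOVL1, ELOVL3, ELOVL4, ELOVL7 and FADS2), beside 7.21% of all tested genes, and 1 higher in STH sheep (ELOVL6), beside 10.8%. Over all genes this balance depended on scaling, with 1104 higher in SM and 1658 in STH sheep here, 1437 and 1402 with upper quartile normalization, and 1590 and 1428 with a trend on exon length removed. For 4 of the 10 genes the lowest SM sheep exceeded the highest STH sheep, beside 12.3% of all tested genes, and the reverse held for 1, beside 13.3%. The median log2 fold change of the 10 genes, SM over STH, was 0.36, beside 0.018 over all tested genes. The study applied edgeR in another program with the same thresholds to these same libraries. It reported genes past both, unlike the quasi-likelihood test here, and ELOVL1, ELOVL3 and ELOVL4 were among those higher in SM sheep. The direction of these genes is therefore not independent evidence.

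**Figure D2:**
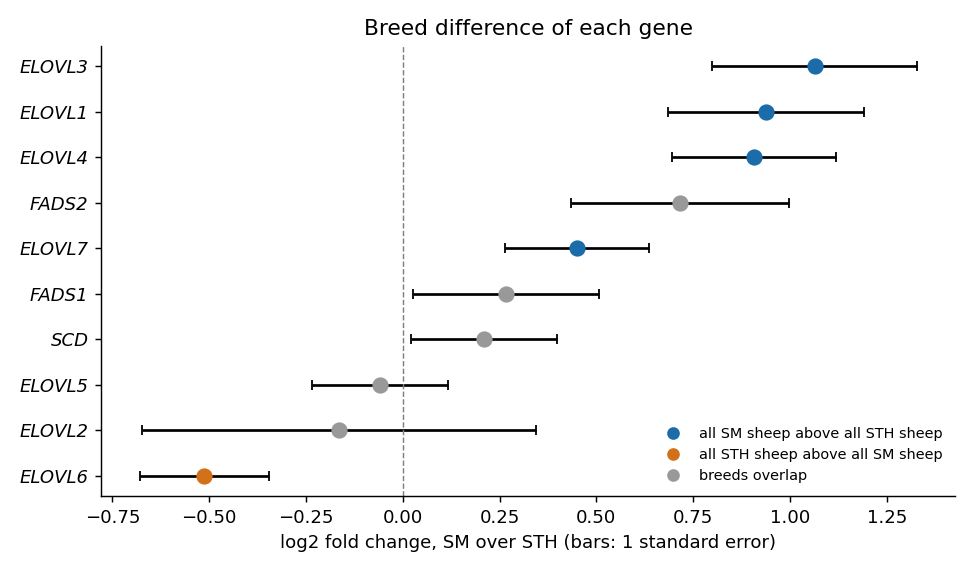
Log2 fold change of each gene, SM over STH, from edgeR's quasi-likelihood test, with bars of 1 standard error. Blue points (ELOVL3, ELOVL1, ELOVL4 and ELOVL7) have all SM sheep above all STH sheep, the orange point (ELOVL6, at -0.51) has the reverse, and the grey points have breeds that overlap.

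The call for 3 elongases depended on the test. With edgeR's likelihood ratio test ELOVL1 (adjusted p = 0.0345), ELOVL3 (adjusted p = 0.0153) and ELOVL4 (adjusted p = 0.0120) passed both thresholds, beside 0.868% of all tested genes that did so and were higher in SM sheep. With DESeq2 the same 3 genes passed, with adjusted p of 0.0213, 0.00854 and 0.00604, beside 1.02% of all tested genes. No other member passed in either test. Without SM sheep 128 the quasi-likelihood test also brought ELOVL1, ELOVL3 and ELOVL4 past both thresholds, beside 1.34% of the 15203 genes tested in that fit, and ELOVL6 in the direction of STH sheep (log2 fold change -0.67, adjusted p = 0.0370), beside 6.39%. In that fit 1175 genes passed both thresholds, against 0 with all 6 sheep.

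ELOVL3, on chromosome 22 of Oar_v4.0 from 22007789 to 22010799 (identifier 101106896), elongates saturated and monounsaturated chains and is known from the sebaceous gland, where its loss in mice disturbs the hair coat. It had 378, 408 and 720 CPM, normalized by the TMM method, in the SM sheep. The STH sheep had 214, 291 and 215 CPM. The lowest SM sheep was therefore above the highest STH sheep, and SM sheep 30126 stood well above the other 2 SM sheep. The mean was 502 CPM for SM (SD 190, n = 3) and 240 CPM for STH sheep (SD 44.0, n = 3). SM over STH, the log2 fold change was 1.06 (SE 0.26, edgeR adjusted p = 0.234), and it was 0.72 without SM sheep 30126.

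ELOVL1, on chromosome 1 from 17809090 to 17813902 (identifier 101110801), is the broadly expressed elongase of saturated very long chains. It had 403, 554 and 823 CPM in the SM sheep and 267, 343 and 319 CPM in the STH sheep. The breeds did not overlap, and the range within SM sheep (2.05-fold from lowest to highest) was wider than that within STH sheep (1.29-fold). Its log2 fold change was 0.94 (SE 0.25, edgeR adjusted p = 0.240), and without SM sheep 30126 it was 0.64.

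ELOVL4, on chromosome 8 from 6777159 to 6818334 (identifier 101113417), makes the longest chains of the family, which epidermal acylceramides need. It had 543, 608 and 777 CPM in the SM sheep and 284, 434 and 309 CPM in the STH sheep. STH sheep XW5 was the highest of its breed and lay closer to SM sheep 128 than to either of the other STH sheep. For ELOVL4 the log2 fold change was 0.91 (SE 0.21, edgeR adjusted p = 0.215), with a range of 0.76 to 1.12 when single sheep were omitted.

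ELOVL7, on chromosome 16 from 18492820 to 18574123 (identifier 101108515), elongates saturated chains. It had 313, 262 and 265 CPM in the SM sheep and 183, 259 and 173 CPM in the STH sheep. The separation of the breeds rested on the narrow gap between SM sheep 30034 and STH sheep XW5. For ELOVL7 the log2 fold change was 0.45 (SE 0.19, edgeR adjusted p = 0.267), and it was 0.65 without STH sheep XW5. In ELOVL7, unlike ELOVL1, ELOVL3 and ELOVL4, the highest SM sheep was 128 and not 30126.

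ELOVL6, on chromosome 6 from 15251964 to 15390731 (identifier 101118274), elongates palmitate to stearate and so supplies the substrate of SCD. It had 149, 119 and 102 CPM in the SM sheep and 184, 180 and 163 CPM in the STH sheep. The lowest STH sheep exceeded the highest SM sheep, and SM sheep 30126, the highest sheep for ELOVL1, ELOVL3 and ELOVL4, was the lowest for ELOVL6. The mean was 123 CPM for SM (SD 23.5, n = 3) and 176 CPM for STH sheep (SD 10.9, n = 3), which gave a log2 fold change of -0.51 (SE 0.17, edgeR adjusted p = 0.247). ELOVL6 is the only member whose span overlaps other listed genes, LOC105613851 and LOC105613852, which had a total count of 0 in all sheep.

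ELOVL5 and ELOVL2, both on chromosome 20, serve polyunsaturated chains. ELOVL5, from 25115657 to 25185345 (identifier 101108431), had 31.0, 31.3 and 23.2 CPM in the SM sheep and 33.3, 30.0 and 25.7 CPM in the STH sheep. The log2 fold change of -0.058 (SE 0.18, edgeR adjusted p = 0.862) was smaller than its error and changed sign under 3 of 14 alternatives. ELOVL2, from 44081397 to 44120083 (identifier 101116613), had 0.661, 1.06 and 1.04 CPM in the SM sheep and 0.584, 0.853 and 1.69 CPM in the STH sheep. All these values were above the floor of 3 counts, but the log2 fold change of -0.16 had a standard error of 0.51, and the coefficient of variation over the STH sheep was 55.3%.

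SCD, on chromosome 22 from 20388194 to 20400199 (identifier 443185), makes oleate and palmitoleate from stearate and palmitate. It had 278, 213 and 345 CPM in the SM sheep and 240, 224 and 260 CPM in the STH sheep. SM sheep 30034 had the lowest value of all 6 sheep and SM sheep 30126 the highest, so the STH sheep lay inside the range of the SM sheep. For SCD the log2 fold change was 0.21 (SE 0.19, edgeR adjusted p = 0.524), and it was 0.043 without SM sheep 30126. Without SM sheep 30034 it was 0.36, and the breeds then did not overlap. SCD and ELOVL3 lie 1607589 bases apart on chromosome 22, with 39 listed genes between them.

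FADS2, on chromosome 21 from 39658279 to 39694650 (identifier 101108615), encodes the desaturase that starts the synthesis of long polyunsaturated chains and that also makes the sapienate of human sebum. It had 17.5, 21.6 and 29.9 CPM in the SM sheep and 19.6, 11.8 and 10.6 CPM in the STH sheep. STH sheep XW3 lay above SM sheep 128, and the other STH sheep lay below all SM sheep. The log2 fold change was 0.72 (SE 0.28, edgeR adjusted p = 0.260) and moved between 0.50 without SM sheep 30126 and 1.03 without STH sheep XW3.

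FADS1, on the same chromosome from 39555186 to 39568812 (identifier 101109049), acts downstream of FADS2 in the same synthesis. It had 82.1, 79.9 and 144 CPM in the SM sheep and 98.9, 76.9 and 78.2 CPM in the STH sheep. Apart from SM sheep 30126, which had the highest value, the SM sheep lay inside the range of the STH sheep. The log2 fold change of 0.27 (SE 0.24, edgeR adjusted p = 0.527) became -0.049 without that sheep. FADS1 and FADS2 are separated by 89466 bases with 1 listed gene between them. In RPKM the level of FADS1 was 1.73, 1.36 and 1.77 times that of FADS2 in the SM sheep and 1.86, 2.39 and 2.71 times in the STH sheep.

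The balance within the elongase family also differed between the sheep. ELOVL1, ELOVL3, ELOVL4 and ELOVL7 together made up 95.7%, 96.8% and 98.2% of the summed elongase RPKM in the SM sheep, against 91.5%, 93.9% and 92.9% in the STH sheep. ELOVL3 alone held 43.6% ± 3.83 for SM (SD, n = 3) against 38.9% ± 1.09 for STH sheep (SD, n = 3), and the breeds did not overlap in this share. ELOVL6 held 3.58%, 2.56% and 1.47% in the SM sheep, against 7.29%, 5.30% and 6.16% in the STH sheep. The shares of ELOVL5 and ELOVL2 were also lower in every SM sheep than in every STH sheep, though their CPM overlapped. The summed elongase RPKM had a mean of 664 in SM and 349 in STH sheep. An elongase with little breed difference therefore tends to have a smaller share in SM sheep. The shares of ELOVL1 and ELOVL4 overlapped between the breeds. ELOVL1 held 25.8% ± 2.91 for SM (SD, n = 3) against 25.2% ± 2.32 for STH sheep (SD, n = 3), and ELOVL4 held 19.7% ± 1.76 (SD, n = 3) and 18.8% ± 1.27 (SD, n = 3). The level of ELOVL3 was 11.8, 15.9 and 32.7 times that of ELOVL6 in the SM sheep and 5.39, 7.49 and 6.11 times in the STH sheep. These shares and ratios follow from the levels given above and were not tested separately.

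**Figure D3:**
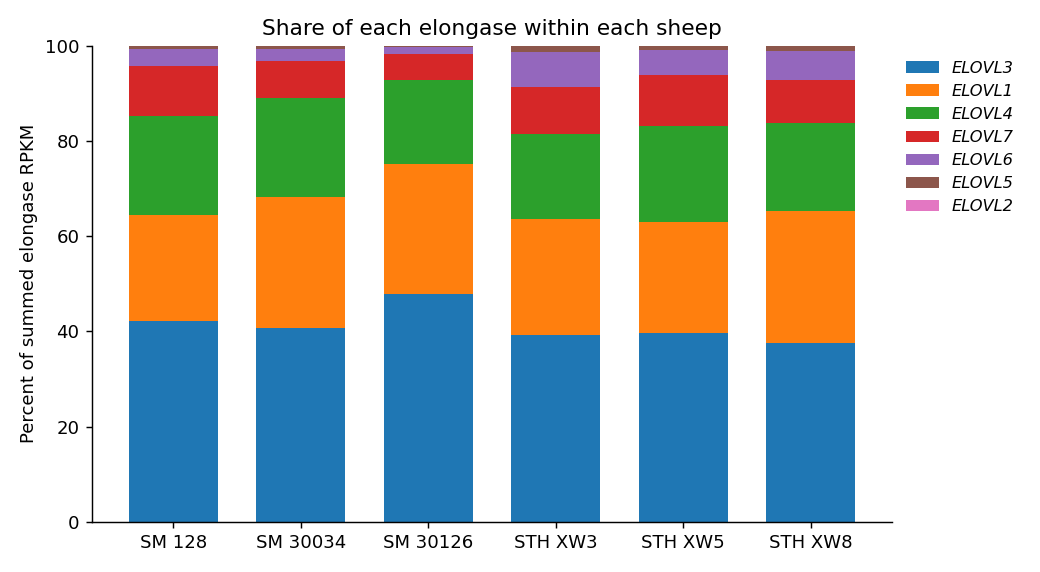
Percent of the summed elongase RPKM held by each of the 7 elongases, as a stacked bar for each of the 6 sheep. ELOVL3 is the largest share in every sheep, between 37.6% and 48.0%. The share of ELOVL6 is smaller in the 3 SM sheep than in the 3 STH sheep, as are those of ELOVL5 and ELOVL2.

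SM sheep 30126 set much of the spread. It was the highest of the 6 sheep for ELOVL1, ELOVL3, ELOVL4, FADS1, FADS2 and SCD and the lowest for ELOVL5 and ELOVL6. Its library also had the lowest TMM factor, 0.921 against 0.999 to 1.05 in the others. The mapping statistics of the study list the fewest unique intronic fragments for it. With 1 library per sheep, a trait of the animal and a trait of its library cannot be told apart. The coefficient of variation over the SM sheep had a median of 24.1% over the 10 genes, beside 19.7% over all tested genes. Over the STH sheep these medians were 16.5% and 14.1%. In each breed 4 of the 10 genes were below the median of all tested genes. STH sheep XW5 was the highest of its breed for ELOVL1, ELOVL3, ELOVL4 and ELOVL7.

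The profiles of the genes over the 6 sheep were compared by the root mean square difference of their log2 CPM, each centred on its mean. ELOVL1 and ELOVL3 were the closest pair, with a difference of 0.16, followed by ELOVL3 and ELOVL4, also 0.16, and ELOVL1 and ELOVL4, 0.19. FADS1 and SCD came next with 0.20 and ELOVL5 and ELOVL6 with 0.26. The most distant pair was ELOVL3 and ELOVL6, with 0.90. Among all tested genes outside the 10, those closest to ELOVL3 were PLIN2 (0.11), which coats lipid droplets, FA2H (0.13), which hydroxylates the fatty acids of ceramides, LOC101119041 (0.15), RDH12 (0.15), a retinol dehydrogenase, and SLC25A20 (0.15), the mitochondrial carnitine carrier. For SCD they were SLC36A1 (0.046), FAM83H (0.050), LOC101117789 (0.052), METTL6 (0.055) and LOC105605712 (0.058). For the mean profile of the 10 genes they were DCAF8 (0.038), ALDH3A2 (0.041), the fatty aldehyde dehydrogenase, SPINT2 (0.044), IDH3B (0.045) and TMEM11 (0.045). The genes closest to ELOVL3 had log2 fold changes from 0.94 to 1.25, so a shared breed difference enters these distances. The study names PLIN2, FA2H, RDH12 and SLC25A20 from these same libraries, and PLIN2 is also among the sebaceous markers below. With 6 sheep these distances describe the libraries only.

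The condensation by an elongase is followed by a reduction, a dehydration and a second reduction, which HSD17B12, HACD1 to HACD4 and TECR carry out for all elongases in common. These 6 genes were all tested, at a median log2 change of 0.10. At an unadjusted p under 0.05, 7.21% of all tested genes were higher in SM and 10.8% in STH sheep. Of the 6 genes, 1 was under it. This was TECR, with a log2 fold change of 0.53 (SE 0.18, edgeR adjusted p = 0.247) and all SM sheep above all STH sheep. HSD17B12 had 0.060 (SE 0.22). The 5 other desaturases SCD5, FADS3, FADS6, DEGS1 and DEGS2 had a median of 0.16, and for none was the unadjusted p under 0.05. FADS6 was nevertheless higher in every SM sheep, at 57.9 ± 2.42 CPM (SD, n = 3) against 50.2 ± 0.757 (SD, n = 3). CYB5A, the cytochrome that passes electrons to the desaturases, had a mean of 17.4 CPM for SM (SD 2.06, n = 3) and 25.8 CPM for STH sheep (SD 4.79, n = 3), which gave a log2 fold change of -0.58 (SE 0.19, edgeR adjusted p = 0.247) with all STH sheep above all SM sheep. The other cytochrome genes planned for this list were not analysed here.

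For the supply of palmitate and malonyl-CoA, 7 genes were tested, at a median log2 change of 0.28. At an unadjusted p under 0.05, 3 were higher in SM sheep, beside 7.21% of all tested genes. ACSS2, which makes acetyl-CoA from acetate, had 0.76 (SE 0.21). FASN, the fatty acid synthase, had 0.62 (SE 0.19), and ACLY, the ATP citrate lyase, 0.49 (SE 0.18). ACSS2 is another gene that the study names from these libraries, and it passed both thresholds with DESeq2 (adjusted p = 0.0381) and the likelihood ratio test (adjusted p = 0.0464). Of 14 regulators of lipid synthesis, 3 were higher in SM sheep at an unadjusted p under 0.05, beside 7.21% of all tested genes. Another 2 were higher in STH sheep, beside 10.8%. SREBF1, the sterol response factor that drives fatty acid synthesis, had 0.55 (SE 0.15), and PPARG, the nuclear receptor of sebocytes and adipocytes, also 0.55 (SE 0.18). INSIG1 had 0.35 (SE 0.15). INSIG2 and MBTPS2 had -0.61 (SE 0.21) and -0.66 (SE 0.22). The list of genes that use long acyl-CoA for ceramides, waxes and other esters had 16 members, with a median of 0.24. At an unadjusted p under 0.05, 6 were higher in SM sheep, beside 7.21% of all tested genes, and 1 in STH sheep, beside 10.8%. Of these 16 genes, 5 are also among the sebaceous markers below, including DGAT2L6, an acyltransferase, which had 2.38 (SE 0.28, edgeR adjusted p = 0.0853). CERS5, another ceramide synthase, had 0.63 (SE 0.18). CERS4, a ceramide synthase, had 0.91 (SE 0.18) and FA2H 0.99 (SE 0.23), both named by the study from these libraries. CERS3, the ceramide synthase of the epidermal barrier, had -0.12 (SE 0.13), with breeds that overlapped. UGCG, the glucosylceramide synthase, had -0.46 (SE 0.18). CERS3 and UGCG were picked after their values were seen. The ceramide synthases CERS1, CERS2 and CERS6 had -0.39 (SE 0.24), 0.067 (SE 0.13) and -0.42 (SE 0.19). No gene of these lists passed both thresholds in the quasi-likelihood test.

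Skin is a mixture of cell types, and in such samples fewer cells of a type and less RNA per cell cannot be told apart. Of 10 sebaceous gland markers (DGAT2L6, AWAT1, AWAT2, MC5R, CIDEA, PLIN2, SOAT1, MGST1, FAR2 and KRT79), all were detected and all had a higher fitted value in SM sheep. Beside 7.21% of all tested genes, 7 of these markers were higher in SM sheep at an unadjusted p under 0.05. The median log2 fold change of the 10 markers was 0.97. The study names DGAT2L6, AWAT1, CIDEA, PLIN2 and KRT79 as higher in SM sheep from these same libraries. This count and median are therefore not independent evidence. Of the other markers, only MGST1 and SOAT1 were under that p. The summed level of the 10 markers ran from 2421 to 3001 CPM in SM and from 1200 to 1957 CPM in STH sheep. KRT79 was the largest part of this sum, with a mean of 877 CPM in SM and 445 CPM in STH sheep. The study lists KRT79 with the marker genes of hair follicle stem cells. Without it the sums ran from 1651 to 2024 CPM in SM and from 842 to 1460 CPM in STH sheep. Of 8 markers of the epidermis between follicles, 6 were higher in STH sheep at an unadjusted p under 0.05, beside 10.8% of all tested genes. The sums of these 8 markers ran from 10557 to 12570 CPM in SM and from 13102 to 20926 CPM in STH sheep. Of 8 adipocyte markers 7 were tested. At an unadjusted p under 0.05, 2 (FABP4 and LPL) were higher in STH sheep, beside 10.8% of all tested genes. The sums of the 8 ran from 46.4 to 80.8 CPM in SM and from 152 to 194 CPM in STH sheep. This separation rested on FABP4, since without it the sums overlapped, from 18.2 to 27.4 CPM in SM and from 18.4 to 36.5 CPM in STH sheep. Those of the wool follicle keratins and HOXC13 overlapped, from 16089.5 to 24756 CPM in SM and from 18394 to 22611 CPM in STH sheep. Smooth muscle markers summed to between 1039 and 1249 CPM in SM and between 1653 and 2111 CPM in STH sheep, while the sums of the dermal fibroblast, endothelial and leucocyte markers overlapped between the breeds. All 5 endothelial markers had a higher fitted value in SM sheep. Of these, 2 (VWF and CDH5) had an unadjusted p under 0.05, beside 7.21% of all tested genes higher in SM sheep. At that p, 1 of 6 fibroblast markers was higher in STH sheep, beside 10.8% of all tested genes. For the leucocyte markers it was 1 of 7, higher in SM sheep, beside 7.21%.

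ELOVL1, ELOVL3 and ELOVL4 were higher in SM sheep, as were the sebaceous markers. SM sheep 128 was below 30034 for these genes and in the marker sum (2421 against 2548 CPM). By the mean log2 CPM of the markers, 128 was above 30034 (6.89 against 6.59). As a percentage of the summed sebaceous marker CPM, ELOVL4 had 22.4%, 23.9% and 25.9% in the SM sheep, against 23.7%, 22.2% and 21.1% in the STH sheep. ELOVL3 had 15.6%, 16.0% and 24.0% in the SM sheep, against 17.8%, 14.9% and 14.7% in the STH sheep. For ELOVL1 the SM sheep had 16.6%, 21.7% and 27.4%, against 22.2%, 17.5% and 21.8% in the STH sheep. On this scale the breeds overlapped for ELOVL1, ELOVL3, ELOVL4 and ELOVL7, all of which had been apart in CPM. ELOVL5 and ELOVL2, which overlapped in CPM, had all STH sheep above all SM sheep on it. The marker sum was itself higher in every SM sheep, so a gene with little breed difference tends to come out higher in STH sheep on this scale. ELOVL6 remained apart, with 6.14%, 4.67% and 3.40% in the SM sheep, against 15.3%, 9.19% and 11.2% in the STH sheep. The mean log2 CPM of the 10 markers differed by 1.01 between the breeds (6.92 ± 0.34 in SM and 5.91 ± 0.35 in STH sheep, SD, n = 3), and taking it as the reference left differences of 0.0086 for ELOVL3, -0.12 for ELOVL1 and -0.090 for ELOVL4. This depended on the markers, since 5 of the 10 are named by the study from these same libraries. The other 5 (AWAT2, MC5R, SOAT1, MGST1 and FAR2) differed by 0.71, with breeds that overlapped, and against them the differences were 0.30, 0.17 and 0.20. Each subtraction lowers the difference of every gene by the same amount, so separations toward STH sheep partly follow from the reference. The share of all tested genes separated in this way was not computed. Against the mean of the 10 markers, ELOVL5, ELOVL6, ELOVL7, FADS1 and SCD had all STH sheep above all SM sheep, and against the mean of the 5 only ELOVL6 did. Against either reference the difference for SCD was negative, -0.82 and -0.53. The part of the sebaceous gland in the breed differences was not tested beyond these values.

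**Figure D4:**
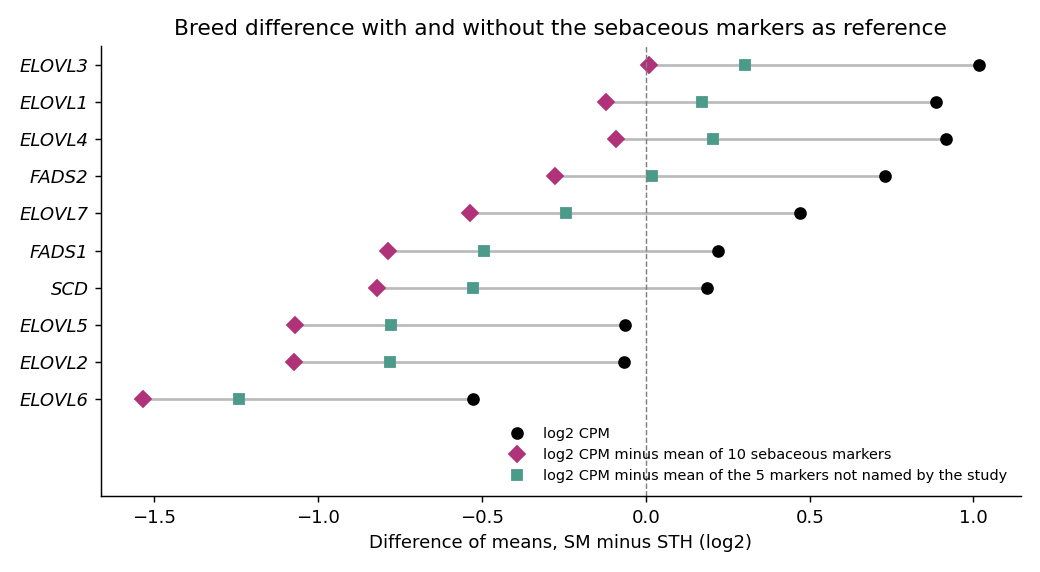
Difference of the mean log2 CPM between SM and STH sheep for each gene (black circles), the same after subtracting the mean of 10 sebaceous markers in each sheep (purple diamonds), and after subtracting the mean of the 5 markers that the study does not name (green squares). The diamonds of ELOVL3, ELOVL1 and ELOVL4 lie between -0.12 and 0.0086, and those of ELOVL6, ELOVL5 and ELOVL2 lie below -1. Each subtraction moves every gene by the same amount.

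Exon length also moved with the comparison. With the tested genes ranked by exon length and divided into 4 groups of 3830, the median log2 fold change was 0.19 in the group of shortest exons and -0.18 in that of longest exons. ELOVL3 has 0.393 times the exon length of the median tested gene and FADS2 0.502 times, whereas ELOVL6 and ELOVL5 have 1.82 and 1.99 times. With each sheep's trend on exon length removed, ELOVL3 had a log2 fold change of 0.94, ELOVL1 0.96, ELOVL4 1.02 and ELOVL7 0.57, and ELOVL6 had -0.35. The breeds did not overlap for the same 5 genes as before, and ELOVL5 changed sign to 0.13. The share of all tested genes without overlap was not computed for this setting.

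**Figure D5:**
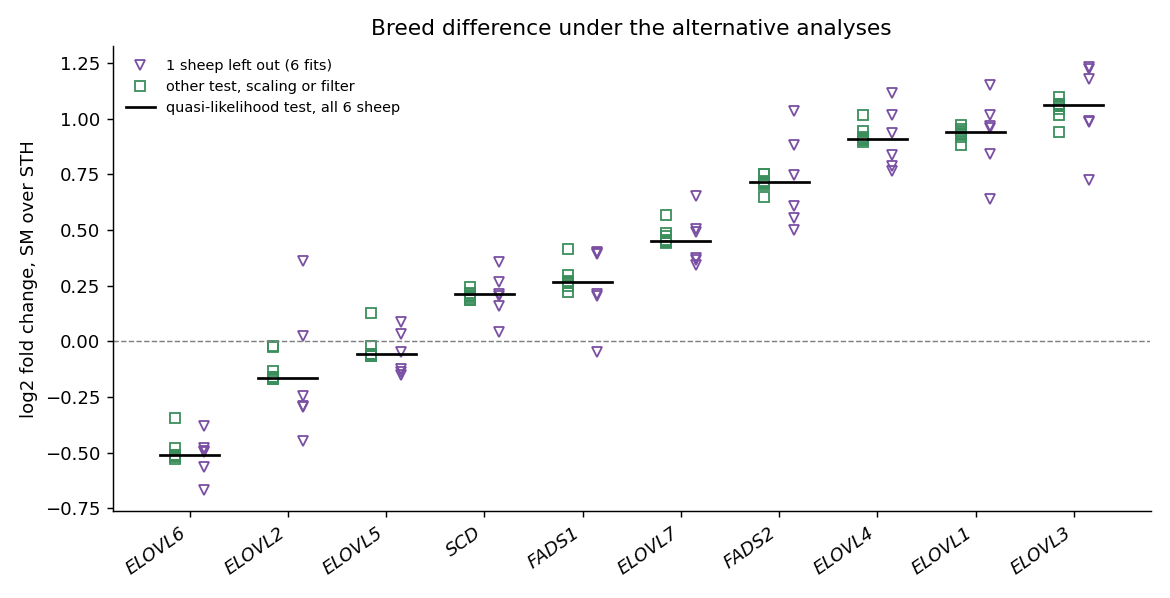
Log2 fold change of each gene, SM over STH, from the quasi-likelihood test on all 6 sheep (black lines), under other tests, scalings and filters (green squares) and with 1 sheep left out (purple triangles). ELOVL1, ELOVL3, ELOVL4, ELOVL7, FADS2 and SCD are above 0 and ELOVL6 below 0 in every fit shown, whereas ELOVL2, ELOVL5 and FADS1 cross 0.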

How the data were processed

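PolyA RNA from the skin of 3 sheep of each breed was sequenced from both ends, with 1 library per animal. The authors checked the reads with FastQC and mapped them to the sheep genome in CLC Genomics Workbench (advanced RNA-seq plugin). Per the file headers, the deposited total counts are whole numbers per gene without normalization. The deposited RPKM values are scaled by the authors to exon length and library, and they were used for levels between genes. The authors' TPM values, RPKM rescaled to a common sum, served as an alternative for levels. A further deposited column, a CPM on an effective library size, was not used. Whether the counting used strand is not given in the sources used here.

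Genes that reached 10 counts in 3 or more sheep were kept, and their counts were normalized by TMM and tested with edgeR 4.0.16 (estimateDisp, glmQLFit, glmQLFTest) in R 4.3.3, with breed as the only term. Adjusted p (Benjamini-Hochberg) covers all tested genes. The standard error is the log2 fold change divided by the square root of F. Exon length relative to other genes was taken from the ratio of count to RPKM. Alternatives were DESeq2 1.42.0, the likelihood ratio test, limma-voom (limma 3.58.1), other scalings and filters, removal of a loess trend on exon length (span 0.5) and each sheep left out. Each test was first run on simulated counts in which known genes had been changed. The sebaceous references were added after seeing the data.

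The 10 genes and the gene lists were chosen with earlier results of these data known. From each pathway list the rule named up to 4 genes by smallest unadjusted p. HSD17B12, UGCG, CERS1, CERS2, CERS3, CERS6 and INSIG1 were named outside it, after their values were seen. KRT14 and KRT33A were matched by identifier, and markers without a match were left out. The symbols and chromosomes of all 10 genes matched the RefSeq gene table by identifier. Sequences were not used here.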

Additional observations from a re-analysis of the deposited data

How the results depend on the processing

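The count of genes past both thresholds was 0 and became 439 with DESeq2 (156 higher in SM and 283 in STH sheep), 352 with the likelihood ratio test (133 and 219), 8 with the length trend removed and 2 without a count filter. With limma-voom, RLE or upper quartile normalization and the filter of 50 counts it stayed 0. It ranged from 0 to 1175 as each sheep was left out, with 1175 without SM sheep 128 and at most 3 without any other sheep. Of the 10 genes, 3 passed with DESeq2, 3 with the likelihood ratio test, and from 0 to 4 as each sheep was left out, with 4 without SM sheep 128 and 0 without any other. At an unadjusted p under 0.05, 1104 genes were higher in SM and 1658 in STH sheep, and this balance reversed to 1437 and 1402 with upper quartile normalization and to 1590 and 1428 with the length trend removed, whereas 5 of the 10 genes stayed higher in SM and 1 in STH sheep in both. The median log2 fold change of the 10 genes lay between 0.29 and 0.49 under every alternative. ELOVL5 changed sign with the length trend removed (0.13), without SM sheep 30126 (0.08) and without STH sheep XW3 (0.03), ELOVL2 without SM sheep 128 (0.02) and without STH sheep XW8 (0.36), and FADS1 without SM sheep 30126 (-0.05). As each sheep was left out these genes ranged from -0.15 to 0.08, from -0.45 to 0.36 and from -0.05 to 0.40. Relative to the 10 sebaceous markers the mean log2 difference changed sign for ELOVL1 (-0.12), ELOVL4 (-0.09), ELOVL7 (-0.54), FADS1 (-0.79), FADS2 (-0.28) and SCD (-0.82), and relative to 5 of them for ELOVL7 (-0.24), FADS1 (-0.49) and SCD (-0.53). Subtracting a marker reference takes the same amount off every gene, 1.01 for the 10 markers and 0.71 for the 5. The sign changes relative to the markers follow from this. The cause of the other changes was not tested. No paired analysis was possible because the labels carry no number or other link shared between animals of different breeds. The number of the 10 genes whose breeds did not overlap was 5 under the other scalings and from 5 to 7 as each sheep was left out. ELOVL2, which had the fewest counts, had no value under the filter of 50 counts.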
